A study of Mus musculus with 25 samples.

Results

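The type I interferon-stimulated genes described here are 39 genes, taken by their gene symbol from a list chosen with earlier results of these data known. Of these, 37 had a row of their own symbol among the 19938 genes of the arrays, 35 could be read on the untreated CD11b+, DN and LysoMac arrays, and 33 on every array. Isg15 shared its row with other symbols and Ifi44 was not listed, so neither has a value. Ifit1 and Rsad2 could be read only on the R848 arrays, and Eif2ak2 and Helz2 have no value in untreated CD8α+ cDC.

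RNA of sorted Peyer's patch phagocytes was hybridised to 25 Affymetrix arrays. The donors were wild-type C57BL/6 females, 6 to 8 weeks old, and each array stands for the pooled patches of 42 of them. Among conventional dendritic cells (cDC), all high for CD11c, positive for MHC class II and negative for BST2 and CD4, untreated CD11b+ cDC (5 arrays) and DN cDC (3 arrays, without CD11b) were SIRPα+ and CD8α-, and untreated CD8α+ cDC (3 arrays) were negative for SIRPα and CD11b. No transgene or deletion is recorded for any group. LysoMac are macrophages that carry CD11c, SIRPα, BST2 and CD4 with little MHC class II, and were split into TIM-4- and TIM-4+ cells (3 arrays each, untreated). CD11b+ cDC (3 arrays) and CD8α+ cDC (5 arrays) were also sorted 9 h after R848, a synthetic ligand of TLR7, had been given by gavage. The labels place TIM-4- LysoMac mainly in the subepithelial dome, and TIM-4+ LysoMac, CD11b+ cDC and CD8α+ cDC mainly in the interfollicular T cell zone, and DN cDC in either.

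Type I interferons signal through the receptor chains IFNAR1 and IFNAR2 and the kinases JAK1 and TYK2 to a complex that contains STAT2 and IRF9 and binds interferon-stimulated response elements. The induced genes encode sensors of foreign nucleic acid, enzymes that degrade or edit RNA, and membrane proteins that hinder viral entry or release. Ligation of endosomal Toll-like receptors is a well known trigger of interferon in cells of the dendritic lineage.

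All values are log2 signals after robust multi-array averaging (RMA), so 1 unit is a factor of 2. Differences are taken for the same gene between groups. Levels of different genes are set side by side only as ranges, medians, means of lists or shares of dimmer genes, and are not tested. A gene is called higher or lower at an adjusted p under 0.05, from limma fitted across all genes with Benjamini-Hochberg adjustment. Flt3, the growth factor receptor of cDC, averaged 10.11 to 10.42 in the untreated cDC groups and 5.13 to 5.59 in LysoMac, and Mertk, a macrophage receptor, 3.45 to 3.66 and 8.46 to 8.84. The deposited columns followed 3 different row orders, one for the 14 untreated CD11b+, DN and LysoMac arrays, one for the 3 untreated CD8α+ arrays and one for the 8 R848 arrays, and rows were matched before any comparison. Each R848 response therefore crosses 2 array sets, as does each comparison of untreated CD8α+ cDC with another cell type. A difference between sets cannot be told apart from R848 or cell type there. The difference of both responses crosses all 3 sets and is confounded with them in the same way. The median gene differed by 0.18 in the R848 response of CD8α+ cDC, by 0.21 in the difference of both responses, by -0.19 between untreated CD8α+ and CD11b+ cDC and by 0.17 between LysoMac and CD8α+ cDC, and by 0.02, -0.03, 0.07 and -0.12 once all arrays were set to a common median.

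In 8 of these genes the promoter holds, wholly before the gene start, the core of the interferon-stimulated response element. The stretches are printed because this element is the common target of the pathway; they are from RefSeq (GRCm38.p6), on the gene's strand, 5′ to 3′, with each match of GAAANNGAAA, or of TTTCNNTTTC as it reads on the other strand, in capitals.
Ifit1: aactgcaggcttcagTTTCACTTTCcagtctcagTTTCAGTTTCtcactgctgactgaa
Ifit3: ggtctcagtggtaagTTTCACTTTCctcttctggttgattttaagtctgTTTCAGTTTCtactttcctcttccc
Rsad2: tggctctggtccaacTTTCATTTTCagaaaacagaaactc
Isg15: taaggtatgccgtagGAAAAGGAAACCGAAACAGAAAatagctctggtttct
Oas1a: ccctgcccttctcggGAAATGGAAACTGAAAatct
Oas3: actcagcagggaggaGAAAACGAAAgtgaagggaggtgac
Stat2: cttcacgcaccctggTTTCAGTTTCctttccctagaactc
Bst2: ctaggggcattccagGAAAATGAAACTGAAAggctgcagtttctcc

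Ifit1 (chr19:34640770-34640828, plus strand) and Ifit3 (chr19:34583358-34583431, plus strand) each hold 2 separate matches. In Isg15 (chr4:156200860-156200911, minus strand) 3 matches overlap, and in Oas1a (chr5:120907526-120907560, minus strand) and Bst2 (chr8:71537572-71537617, minus strand) 2 overlap. Oas3 (chr5:120777710-120777749, minus strand), Rsad2 (chr12:26456548-26456587, minus strand) and Stat2 (chr10:128270261-128270300, plus strand) hold 1 match each. Windows from 250 bases before to 50 after the gene start were given for 30 of the 39 genes, and 11 of these (36.7%) held the motif, the others being Ifih1, Eif2ak2 and Ifitm3, against 3.99% of 27025 genes.

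Over the 33 genes read on every array, the median level was lowest in untreated cDC, higher in LysoMac and highest in R848-treated cDC. It was 6.49 to 6.85 on the CD11b+, 6.58 to 6.61 on the DN and 6.40 to 6.64 on the CD8α+ arrays, 7.61 to 7.71 on the TIM-4- and 7.53 to 7.67 on the TIM-4+ LysoMac arrays, and 8.29 to 8.44 and 8.49 to 8.66 on the CD11b+ and CD8α+ arrays after R848. The median over all genes was 4.59 to 4.97 on the same arrays. Among the untreated groups, 14 of the 33 genes had their highest mean in TIM-4- and 13 in TIM-4+ LysoMac, where 20% and 21.3% of all genes did. With a common median these were 14 and 11, where 14.3% of all genes did in each group. In CD8α+ cDC 17 had their lowest mean, near the 54% of all genes that did. With a common median 8 had it there, against 22.4% of all genes, and 18 in DN cDC, against 36.6%.

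**Figure D1:**
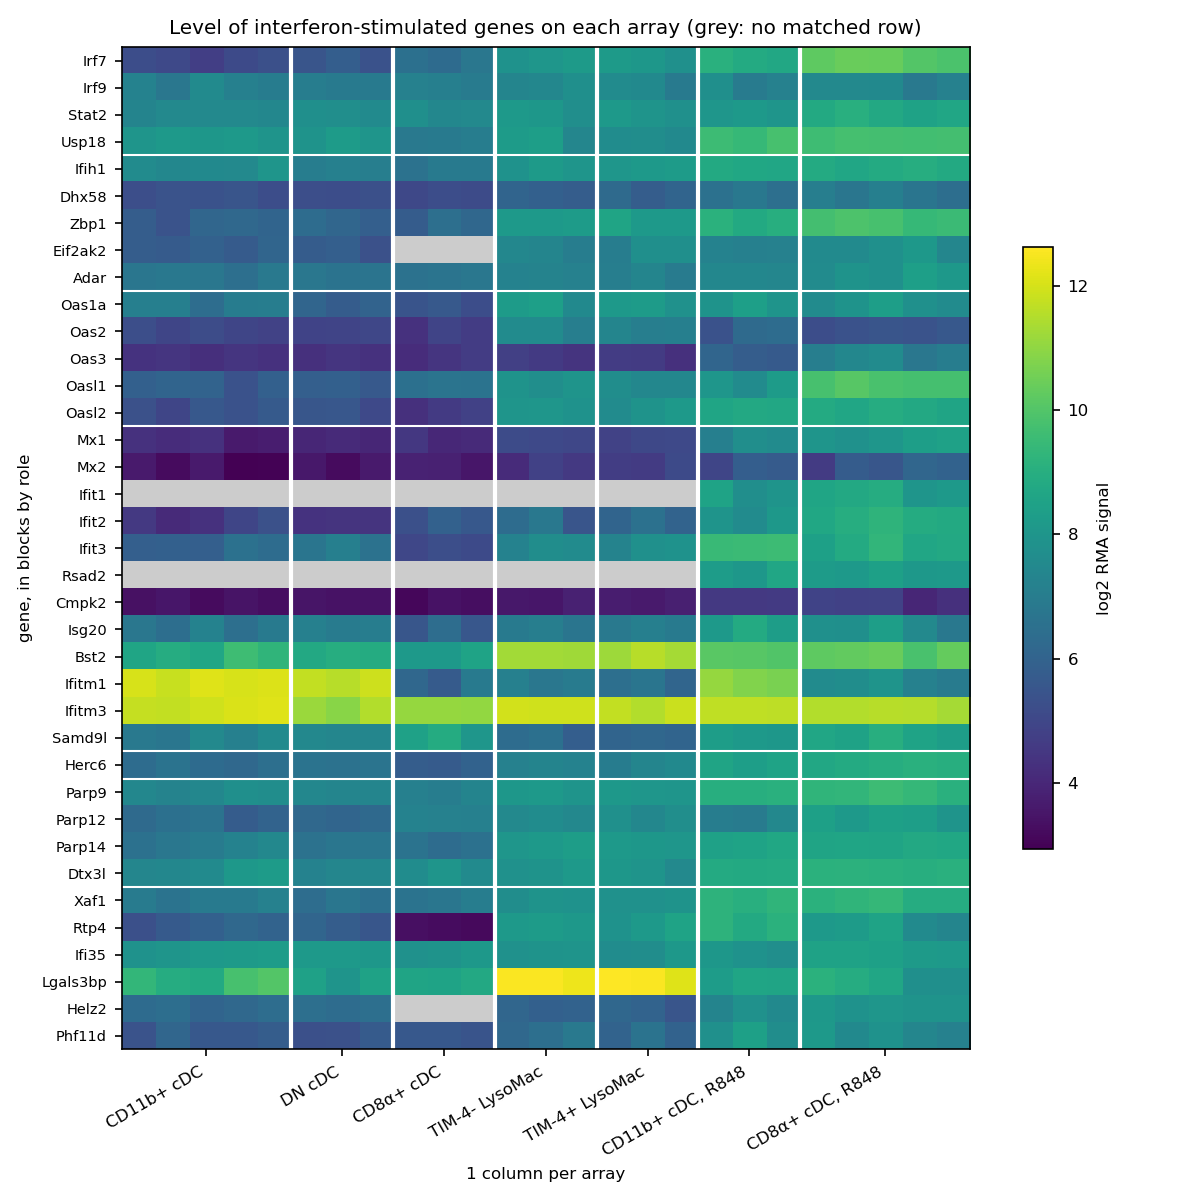
Level of each of the 37 measured interferon-stimulated genes (rows, in blocks by role) on each of the 25 arrays (columns, by group), as colour on the log2 RMA scale; grey cells have no matched row. Most rows brighten from untreated cDC to LysoMac and to R848-treated cDC, while Ifitm1 is brightest in CD11b+ and DN cDC, Samd9l is dimmest in LysoMac and Lgals3bp is brightest there.

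After R848, most of these genes were higher in CD11b+ cDC. Of 35 measured genes, 30 were called higher and 2 lower, where 17.7% of all genes were called higher and 23.4% lower. By at least 2-fold, 26 were higher and 1 was lower, against 3.01% and 4.89% of all genes. The median difference was 1.34 over the 35 genes and -0.03 over all genes. In 30 of the 35 genes every treated array lay above every untreated array, as in 16.9% of all genes, and in 3 (Lgals3bp, Ifitm1 and Ifitm3) every treated array lay below, as in 21.2%.

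In CD8α+ cDC, 30 of 33 measured genes were higher after R848 and 0 were lower, where 41.8% of all genes were called higher and 15% lower. By at least 2-fold, 27 were higher, against 6.39% of all genes. The median difference was 2.04 over the 33 genes and 0.18 over all genes. In 30 genes every treated array lay above every untreated array, as in 42.3% of all genes, and in 0 below, as in 14.7%. With a common median 28 were called and after cyclic loess 29, Ifi35 (0.27, adjusted p = 0.0788, with a common median) and Ifitm3 (0.24, adjusted p = 0.12) being lost.

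Irf7, the transcription factor that amplifies interferon production, rose in both subsets. Its level was 5.22, 5.08, 4.75, 5.11 and 5.31 on the untreated CD11b+ arrays and 9.07, 8.86 and 8.75 after R848, a difference of 3.80 ± 0.15 (SE, adjusted p = 3.47e-14). In CD8α+ cDC it was 6.52, 6.31 and 6.76 untreated and 10.23, 10.42, 10.35, 10.02 and 9.89 after R848, a difference of 3.65 ± 0.15 (adjusted p = 1.69e-14). No treated array overlapped an untreated one in either subset. CD8α+ cDC stood 1.44 ± 0.15 above CD11b+ cDC before R848 (adjusted p = 1.01e-07) and 1.29 ± 0.15 above them after it (adjusted p = 1.57e-06).

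Of the other regulators, Stat2, the signalling subunit that pairs with IRF9, rose by 0.61 ± 0.11 in CD11b+ and 1.19 ± 0.11 in CD8α+ cDC. Usp18, the protease that removes ISG15 and restrains receptor signalling, rose by 1.52 ± 0.15 and 2.77 ± 0.15. Irf9, the DNA-binding subunit of the complex, was not called, at 0.14 ± 0.19 (adjusted p = 0.601) and 0.23 ± 0.19 (adjusted p = 0.315). Its CD11b+ arrays overlapped, at 6.79 to 7.59 untreated and 6.98 to 7.74 after R848. With the replicate number as a block it was called higher in CD8α+ cDC (0.43, adjusted p = 0.0491).

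The sensors rose in both subsets, 5 of 5 in CD11b+ and 4 of 4 measured in CD8α+ cDC. Of all genes, 17.7% and 41.8% were called higher there. Zbp1, which binds Z-form nucleic acid, differed by 3.05 ± 0.17 in CD11b+ and 3.54 ± 0.17 in CD8α+ cDC. Ifih1 (MDA5, a sensor of double-stranded RNA) differed by 1.13 ± 0.11 and 2.04 ± 0.11, and Dhx58 (LGP2, its regulator) by 1.26 ± 0.13 and 1.66 ± 0.13. Adar, which edits adenosines in double-stranded RNA, differed by 0.66 ± 0.13 and 1.30 ± 0.13, and Eif2ak2 (PKR, the kinase that halts translation) by 1.34 ± 0.17 in CD11b+ cDC.

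The 5 oligoadenylate synthetase genes, whose family includes the activators of the nuclease RNase L, all rose in both subsets. Of all genes, 17.7% were called higher in CD11b+ and 41.8% in CD8α+ cDC. Oasl2 was at 5.34, 4.95, 5.61, 5.37 and 5.67 on the untreated CD11b+ arrays and 8.63, 8.77 and 8.73 after R848. It was at 4.29, 4.58 and 4.80 on the untreated CD8α+ arrays and 8.87, 8.67, 8.94, 8.80 and 8.60 after R848. CD8α+ arrays thus began below the CD11b+ arrays without overlap, while both ranges overlapped after R848. Oas3 was at 4.35, 4.43, 4.23, 4.45 and 4.33 in untreated CD11b+ cDC and 6.10, 5.79 and 5.68 after R848. Its CD8α+ arrays held 4.18, 4.42 and 4.65 untreated and 7.08, 7.43, 7.59, 6.77 and 7.04 after R848. Here the subsets overlapped before R848 and not after it.

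Of the 10 antiviral effectors measured before and after R848, 8 were higher and 1 lower in CD11b+ cDC, and 9 were higher in CD8α+ cDC. The shares of all genes were 17.7% higher and 23.4% lower in CD11b+ and 41.8% higher in CD8α+ cDC. Mx1, a GTPase that blocks viral ribonucleoproteins, was at 4.34, 4.18, 4.33, 3.64 and 3.72 in untreated CD11b+ cDC and 7.13, 7.73 and 7.59 after R848, a 10.9-fold difference. In CD8α+ cDC it was at 4.50, 4.03 and 4.10 untreated and 7.98, 7.84, 8.01, 8.35 and 8.49 after R848, a 15.2-fold difference. Treated and untreated arrays did not overlap in either subset. Ifit2 and Ifit3, of the family that binds viral RNA, differed by 3.24 ± 0.26 and 3.42 ± 0.19 in CD11b+ cDC and by 3.30 ± 0.26 and 3.69 ± 0.19 in CD8α+ cDC. Their rows on untreated arrays were matched with a probability of 0.928 to 0.932, and in simulations 11.1% to 17% of rows accepted below 0.95 were wrong, so every value of Ifit2 and Ifit3 on untreated arrays is less certain than those of the other genes.

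Ifitm1, of the membrane protein family that hinders viral fusion, was lower after R848 in one subset and higher in the other. It was at 12.01, 11.80, 12.16, 12.01 and 12.09 in untreated CD11b+ cDC and 11.08, 10.79 and 10.65 after R848, a difference of -1.17 ± 0.22 (adjusted p = 0.000184). In CD8α+ cDC it was at 6.17, 5.74 and 6.90 untreated and 7.60, 7.69, 7.95, 7.20 and 6.96 after R848, a difference of 1.21 ± 0.22 (adjusted p = 8.69e-05). Treated and untreated arrays did not overlap in either subset, and every CD11b+ array stayed above every CD8α+ array. The arrays held another row for Ifitm1, and the values given are those of the brighter row. No call of Ifitm1 ended when the mean of its rows was taken. Ifitm3 varied less between groups, with means of 11.08 ± 0.02 (SD, n = 3) in untreated CD8α+ to 11.92 ± 0.18 (SD, n = 5) in untreated CD11b+ cDC, and was not called in CD11b+ cDC after R848 (-0.24 ± 0.11, adjusted p = 0.095).

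The 4 genes of the PARP group rose in both subsets, where 17.7% (CD11b+) and 41.8% (CD8α+) of all genes were called higher. Parp9 and its partner Dtx3l differed by 1.52 ± 0.11 and 1.10 ± 0.16 in CD11b+ and by 2.16 ± 0.11 and 1.35 ± 0.16 in CD8α+ cDC. Herc6, the main ISG15 ligase of the mouse, differed by 2.11 ± 0.11 and 3.10 ± 0.11. Rtp4, a receptor transporter induced by interferon, was at 3.35, 3.26 and 3.19 in untreated CD8α+ cDC and 8.15, 8.25, 8.54, 7.59 and 7.33 after R848, a difference of 4.70 ± 0.23. Only 14.5% of all genes had a lower mean than Rtp4 in untreated CD8α+ cDC, and the files give no background level, so differences from that group may understate the change of Rtp4. The same holds for Mx2 and Cmpk2, with 10.7% and 13.3% of genes below them in untreated CD11b+ cDC. Lgals3bp, a secreted galectin-binding glycoprotein, was lower in CD11b+ cDC after R848 (-0.88 ± 0.29, adjusted p = 0.0174), a call that ended without R848 CD11b+ replicate 1 (-0.78, adjusted p = 0.0759).

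Markers of other cell types also moved after R848, where 17.7% of all genes were called higher and 23.4% lower in CD11b+ cDC, and 41.8% and 15% in CD8α+ cDC. B cell markers were higher for 4 of 5 measured in CD11b+ and 4 of 4 in CD8α+ cDC. The mean of the 4 read on every array was 5.32 to 5.86 on untreated and 6.92 to 7.67 on treated CD11b+ arrays, and 4.05 to 4.56 and 5.65 to 6.44 on CD8α+ arrays. Of 5 plasma cell markers, 3 were higher and 1 lower in each subset, and their mean was 6.04 to 7.18 on untreated and 6.95 to 8.16 on treated CD11b+ arrays, and 5.43 to 6.20 and 6.27 to 7.61 on CD8α+ arrays. Of 4 T cell markers, 1 was higher and 3 lower in CD11b+ cDC, and 4 were higher in CD8α+ cDC (4.29 to 4.36 untreated, 4.83 to 6.30 treated).

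Counts of plasmacytoid dendritic cell markers lay near the shares of all genes just given. Of 6, 1 was higher and 2 lower in CD11b+ cDC, and 2 were higher and 1 lower in CD8α+ cDC. Their mean was 6.71 to 6.99 on untreated and 6.85 to 7.05 on treated CD11b+ arrays, and 5.49 to 5.52 and 6.05 to 6.26 on CD8α+ arrays. Siglech, a defining marker of these cells, averaged 4.77 and 4.54 in untreated CD11b+ and CD8α+ cDC and 4.37 and 4.42 after R848. Spib, a transcription factor that B cells also use, averaged 8.82 and 4.00 and then 10.56 and 10.55.

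Most markers of the sorted cells themselves were lower after R848, where 23.4% of all genes were called lower in CD11b+ and 15% in CD8α+ cDC. In CD8α+ cDC 5 of 6 measured markers of that lineage (cDC1) were lower, and the mean of the 5 read on every array was 9.81 to 9.89 on untreated and 7.09 to 7.75 on treated arrays. In CD11b+ cDC 4 of 6 markers of the other lineage (cDC2) were lower, with a mean of 7.46 to 7.94 on untreated and 5.68 to 6.10 on treated arrays. Itgam, which encodes CD11b, averaged 7.07 untreated and 4.20 treated there, and 4.21 in treated CD8α+ cDC, while Irf4 averaged 7.79 and 8.25 in CD11b+ cDC. The mean of 5 markers shared by cDC was 9.17 to 9.59 on untreated and 8.47 to 8.71 on treated CD11b+ arrays. On CD8α+ arrays it was 9.17 to 9.40 and 8.16 to 8.29, but the means of Flt3 (10.11 and 10.31) and Dpp4 (10.52 and 10.97) did not fall. In CD8α+ cDC 3 of 5 NK cell and 2 of 6 neutrophil markers were higher, where 41.8% of all genes were. The neutrophil count did not exceed that share. In CD11b+ cDC 4 of 7 macrophage and 3 of 7 epithelial markers were lower. Macrophage markers moved both ways in CD8α+ cDC, C1qc from a mean of 5.92 to 7.33 and Cd68 from 10.71 to 8.01. So did NK cell markers in CD11b+ cDC, Klrk1 from 6.45 to 7.91 and Gzma from 7.75 to 4.42. The part of any of these lists in the R848 responses was not tested. In such sorted pools, a change in the number of cells of a type and in RNA per cell cannot be told apart.

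The responses of both subsets were compared with an interaction term, which crosses all 3 array sets because the untreated subsets lie in different ones. A difference between sets cannot be told apart from one between subsets here. Of 33 genes, 16 responded more in CD8α+ cDC and 1 more in CD11b+ cDC, where 26.9% and 6.06% of all genes were called so, and 6 did so by at least 2-fold, against 5.48%. The median difference of responses was 0.56 over these genes and 0.21 over all genes. Set to a common median, 9 and 1 were called, where 22% of all genes were called in either direction. After cyclic loess the counts were 12 and 1, where 23.8% of all genes were called. The 10 genes called under all 3 scalings were Ifitm1 (2.38 ± 0.31), Rtp4 (1.49 ± 0.32), Oas1a (1.27 ± 0.29), Oas3 (1.26 ± 0.21), Usp18 (1.25 ± 0.21), Oasl1 (1.12 ± 0.20), Herc6 (0.99 ± 0.15), Ifih1 (0.91 ± 0.16), Oasl2 (0.89 ± 0.21) and, with the larger response in CD11b+ cDC, Samd9l (-0.86 ± 0.28).

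Some genes did not pass the threshold for a difference between subsets. The difference of responses was -0.15 ± 0.21 for Irf7 (adjusted p = 0.603), 0.48 ± 0.24 for Mx1 (adjusted p = 0.134) and -0.18 ± 0.26 for Oas2 (adjusted p = 0.613). For Zbp1 it was 0.48 ± 0.25 (adjusted p = 0.134), and it was called without CD11b+ replicate 2 (0.61, adjusted p = 0.0413).

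Samd9l, an antiviral and growth-restricting protein, was at 6.84, 6.75, 7.50, 7.14 and 7.56 in untreated CD11b+ cDC and 8.32, 8.12 and 8.04 after R848, without overlap. It was at 8.47, 8.89 and 8.04 in untreated CD8α+ cDC, which overlapped the 8.66, 8.51, 9.00, 8.53 and 8.31 after R848 (0.14 ± 0.20, adjusted p = 0.561). The call for the difference of its responses ended without CD8α+ replicate 2 (-0.65, adjusted p = 0.0853), without R848 CD11b+ replicate 1 (-0.78, adjusted p = 0.054) and with the replicate number as a block (-0.87, adjusted p = 0.0663). That for Parp14 (0.56 ± 0.19) ended without CD8α+ replicate 2 (0.49) or R848 CD11b+ replicate 1 (0.51) or 2 (0.56).

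**Figure D2:**
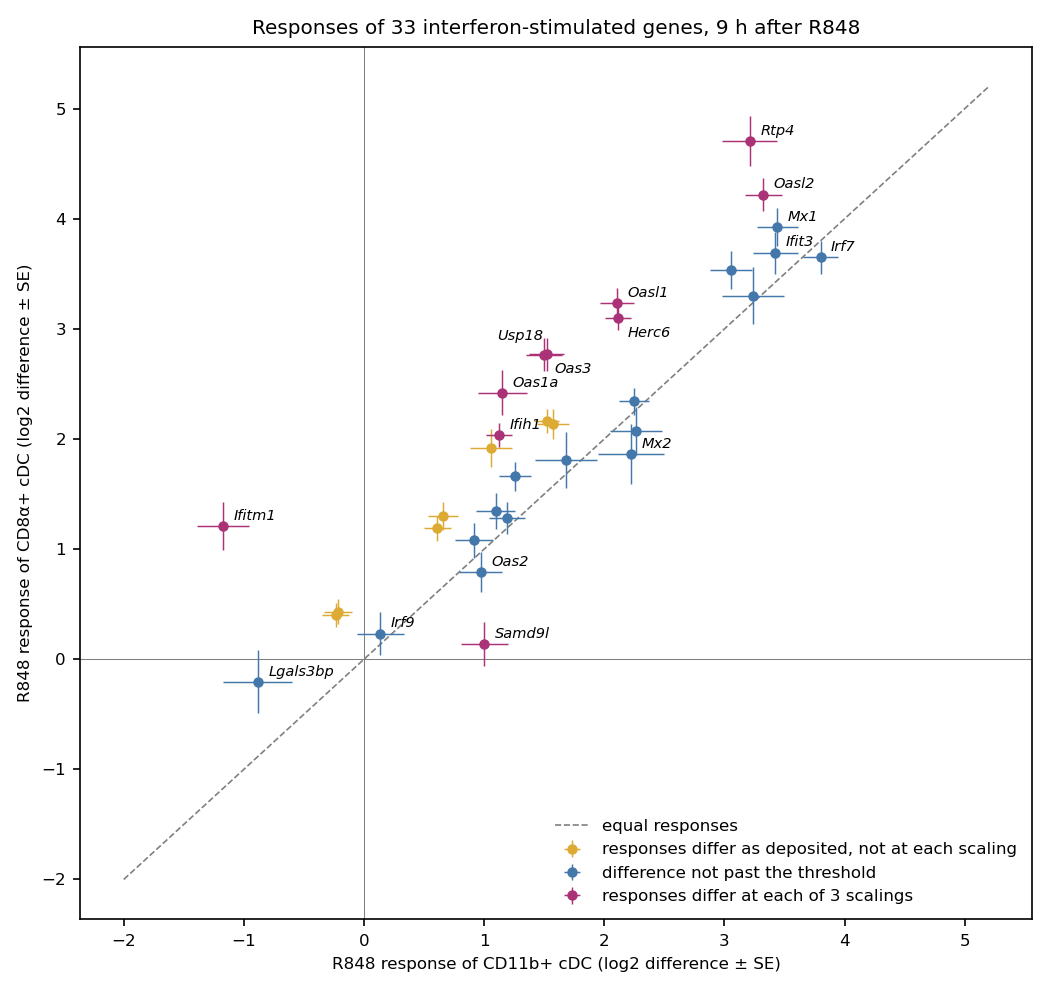
R848 response of CD8α+ cDC (y axis) against that of CD11b+ cDC (x axis) for the 33 genes read on every array, each as a log2 difference with SE bars; the dashed line marks equal responses. The 9 purple genes above the line and Samd9l below it differed between subsets under each of 3 scalings, and Ifitm1 lies at -1.17 on the x axis and 1.21 on the y axis.

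After R848 both subsets lie in 1 array set and could be compared without matching rows. Of 37 genes, 12 were higher and 5 lower in CD8α+ cDC, against 5.77% and 6.77% of all genes, and by at least 2-fold 5 were higher and 2 lower, against 1.32% and 2.39%. Oasl1 (1.89 ± 0.14), Oas3 (1.32 ± 0.15), Irf7 (1.29 ± 0.15), Parp12 (1.12 ± 0.16) and Stat2 (0.71 ± 0.11) were higher in CD8α+ cDC, and Ifitm1 (-3.36 ± 0.22) and Rtp4 (-1.07 ± 0.23) were lower. These 7 calls held under every setting tried and without any 1 array. Rsad2 (viperin) and Ifit1 averaged 8.34 ± 0.29 and 8.07 ± 0.43 (SD, n = 3) in CD11b+ and 8.23 ± 0.12 and 8.49 ± 0.40 (SD, n = 5) in CD8α+ cDC after R848 and were not called (adjusted p = 0.751 and 0.407 from limma).

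The other 10 calls depended on the setting or on 1 array. Without R848 CD11b+ replicate 1, the call of Mx1 (0.65) ended (0.48, adjusted p = 0.123). Without replicate 2 of that group, those of Zbp1 (0.62, adjusted p = 0.0624), Ifit2 (0.89, adjusted p = 0.0686) and Herc6 (0.35, adjusted p = 0.0904) ended, and without replicate 3 that of Ifi35 (0.41, adjusted p = 0.0577). Oas2 (-0.59) lost its call without R848 CD11b+ replicate 2 or 3 (-0.44 and -0.41) or R848 CD8α+ replicate 1, 2 or 4. Isg20 (-0.79) lost it without R848 CD11b+ replicate 2 or 3 (-0.59 and -0.86) or R848 CD8α+ replicate 1, 2, 4 or 5 (lowest size -0.59, without replicate 5). Helz2 (0.41) lost it without R848 CD11b+ replicate 1 or 3 (0.29 and 0.40) or any 1 of the R848 CD8α+ arrays. With the replicate number as a block, Ifit3 (-0.67, adjusted p = 0.0982) and Adar (0.38, adjusted p = 0.101) also lost it, and 10 calls were left of 17.

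Genes upstream of these were counted against the same shares of all genes, 17.7% higher and 23.4% lower in CD11b+ and 41.8% and 15% in CD8α+ cDC after R848. Of 11 type I interferon genes measured in CD11b+ cDC, 6 were higher and 1 lower, and of 14 in CD8α+ cDC 5 were higher and 1 lower. Group means of the 11 ran from 2.87 (Ifna13) to 5.67 (Ifna5) in untreated CD11b+ cDC and from 3.13 to 6.19 after R848. Those of the 14 ran from 2.87 (Ifna12) to 6.01 (Ifnz) in untreated CD8α+ cDC and from 3.08 (Ifna13) to 5.91 (Ifna5) after R848. Ifnb1 had no value in untreated CD11b+ cDC and averaged 3.50 and 3.54 in the treated subsets. Of the ligands of other types, Ifnl2 (type III) averaged 6.79 and 5.67 in untreated CD11b+ and CD8α+ cDC and 6.57 and 6.75 after R848. Ifng (type II), without a value in untreated CD11b+ cDC, averaged 3.68 there after R848. In CD8α+ cDC Ifng averaged 8.18 untreated and 3.67 after R848. Whether the Ifng row in untreated CD8α+ cDC was matched wrongly was not tested. No background level is given, so whether the dimmest were expressed cannot be told. Of the receptor chains, 0 of 4 were higher and 4 lower in CD11b+ cDC, and 1 of 5 was higher and 2 lower in CD8α+ cDC. Ifngr1, a chain of the interferon-γ receptor, fell by 2.13 ± 0.12 and 2.92 ± 0.12, and Ifnar1 fell by 0.49 ± 0.13 in CD11b+ cDC. Among 8 signal transducers, 6 were higher and 1 lower in CD11b+ and 4 higher and 1 lower in CD8α+ cDC. The kinase Tyk2 rose by 1.26 ± 0.16 and 1.63 ± 0.16 and the transcription factor Irf1 by 1.55 ± 0.16 and 2.36 ± 0.16. Upstream sensors and adaptors had 4 of 11 higher and 2 lower in CD11b+ and 5 of 11 higher and 3 lower in CD8α+ cDC, and negative regulators 3 of 7 higher and 3 lower, and 3 of 7 higher and 1 lower. In CD8α+ cDC the counts of higher ligands, transducers, upstream sensors and negative regulators lay near the share of all genes.

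A list of other interferon-induced genes had 26 of 32 measured members higher and 3 lower in CD11b+ cDC after R848, and 26 of 33 higher and 1 lower in CD8α+ cDC, against the shares of all genes just given. Ube2l6, the conjugating enzyme for ISG15, rose by 3.09 ± 0.20 and 3.60 ± 0.20. Cxcl10, which encodes a chemokine for CXCR3, rose by 2.75 ± 0.32 in CD11b+ cDC, from 6.03 to 8.78, and was not called in CD8α+ cDC (0.34 ± 0.32), at 7.80 and 8.13. The difference of these responses was called (-2.42 ± 0.45, adjusted p = 0.000402).

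Set beside the promoter motif shown above, the genes with a match responded to R848 by -0.24 to 3.42 in CD11b+ cDC (8 genes, median 1.14) and those with a window but no match by -1.17 to 3.80 (18 genes, median 1.22). In CD8α+ cDC the ranges were 0.40 to 3.69 (7 genes, median 2.04) and -0.21 to 4.22 (17 genes, median 1.35). The ranges overlapped in both subsets. Irf7 and Oasl2 have a window in which these letters do not occur.

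Untreated LysoMac had higher levels of most of these genes than untreated CD11b+ cDC, which lie in the same array set. TIM-4- LysoMac had 24 of 35 genes higher and 2 lower, against shares of 11.1% and 12.8% among all genes. In TIM-4+ LysoMac, 23 were higher and 4 lower, against 11.9% and 13.5% of all genes. By at least 2-fold, 16 were higher in TIM-4- and 15 in TIM-4+ cells, against 4.01% and 4.23% of all genes. The median differences were 0.85 and 0.89, and -0.01 over all genes in both comparisons, which share the CD11b+ arrays. In 22 of the 35 genes all 6 LysoMac arrays lay above all 8 untreated CD11b+ and DN arrays, as in 7.23% of all genes.

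Irf7 was at 7.87, 8.04 and 8.23 in TIM-4- and 8.22, 8.07 and 7.79 in TIM-4+ LysoMac, and at 5.48, 5.82 and 5.39 in DN cDC, beside 4.75 to 5.31 in CD11b+ cDC. It exceeded CD11b+ cDC by 2.95 ± 0.15 (TIM-4-, adjusted p = 6.66e-13) and 2.93 ± 0.15 (TIM-4+, adjusted p = 5.97e-13), and no LysoMac array overlapped an untreated cDC array. Oasl2 was at 7.97, 8.03 and 7.86 in TIM-4- and 7.62, 7.91 and 8.17 in TIM-4+ LysoMac, likewise above every untreated cDC array.

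The other genes at least 2-fold higher in both LysoMac groups included Zbp1 (2.25 ± 0.17 in TIM-4- and 2.39 ± 0.17 in TIM-4+), Rtp4 (2.34 ± 0.23 and 2.35 ± 0.23), Oasl1 (2.01 ± 0.14 and 1.64 ± 0.14) and Eif2ak2 (1.41 ± 0.17 and 1.65 ± 0.17). Bst2 (tetherin, which holds budding virus on the cell) was higher by 2.24 ± 0.17 and 2.34 ± 0.17; its protein was used in the sort, LysoMac being taken as BST2+ and cDC as BST2-. Parp12, Parp14, Oas1a, Mx2, Ifit2 and Ifit3 were also higher by at least 2-fold in both.

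Oas2 and Lgals3bp were higher on every untreated LysoMac array than on any R848-treated cDC array. Oas2 was at 7.61, 7.59 and 7.08 in TIM-4- and 7.34, 7.10 and 7.12 in TIM-4+ LysoMac, and at 5.36, 6.30 and 6.37 in CD11b+ and 5.23, 5.36, 5.50, 5.43 and 5.61 in CD8α+ cDC after R848. Lgals3bp was at 12.55, 12.54 and 12.37 and 12.61, 12.56 and 12.15 in LysoMac, and at 7.75 to 10.03 over all cDC arrays. With Bst2, 3 of the 35 genes had every LysoMac array above every R848 array, as in 18% of all genes, and 20 had every LysoMac array below, as in 16.7%. Irf7, Mx1, Zbp1, Oasl2 and Oas3 were among those 20. These orders cross array sets and were not tested.

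**Figure D3:**
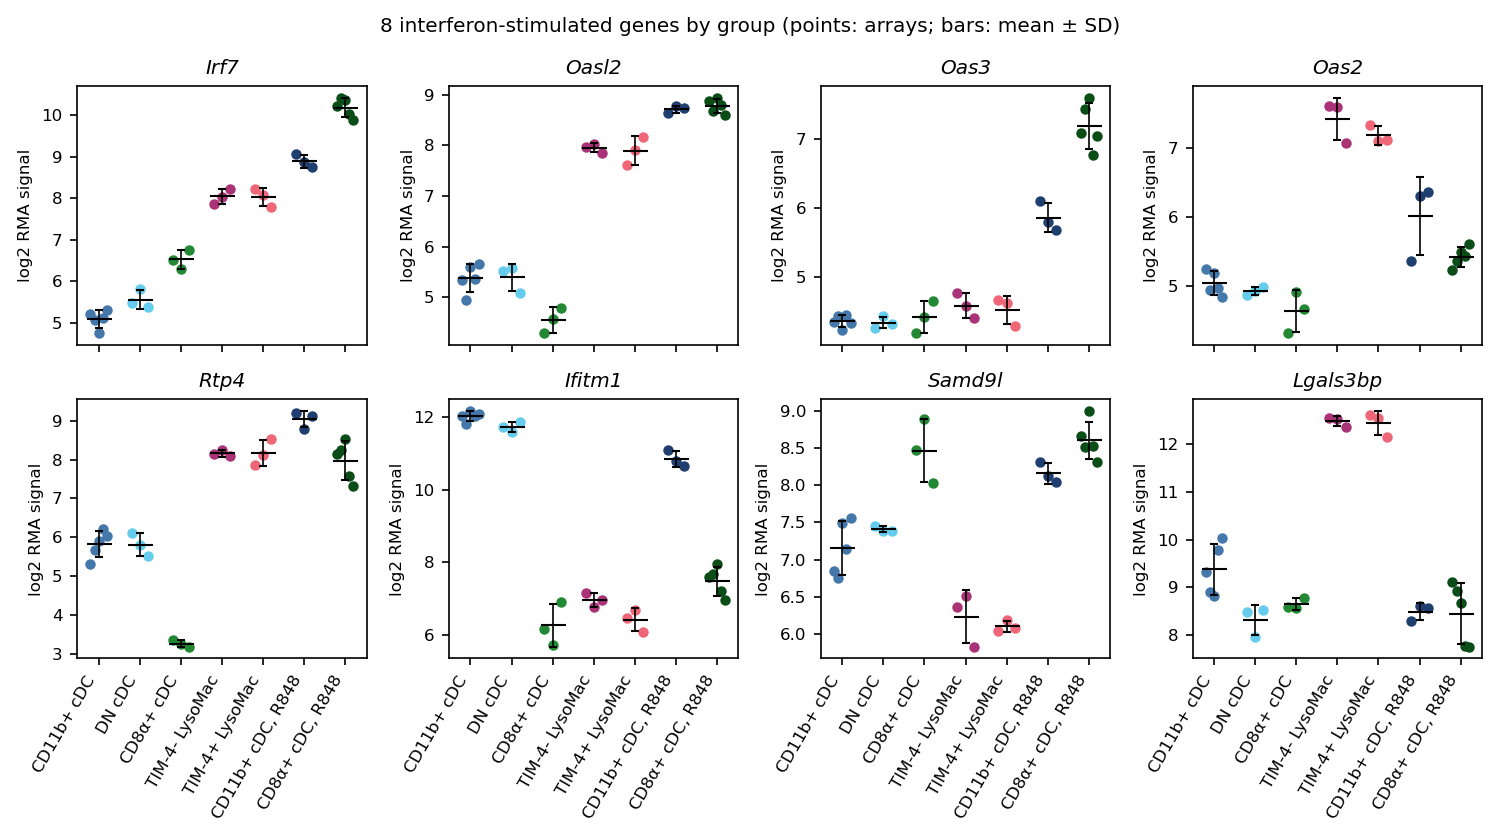
Log2 RMA signal (y axis) of 8 interferon-stimulated genes in the 7 groups (x axis), with a point per array and bars for mean ± SD; each panel has its own scale, which does not start at 0. Irf7, Oasl2 and Rtp4 are high in LysoMac and after R848, Oas3 is high after R848, Oas2 and Lgals3bp are highest in LysoMac, and Ifitm1 is highest in CD11b+ and DN cDC.

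Some genes did not follow the majority in LysoMac. Ifitm1 was at 7.15, 6.77 and 6.96 in TIM-4- and 6.48, 6.70 and 6.08 in TIM-4+ LysoMac (-5.06 ± 0.22 and -5.59 ± 0.22 against CD11b+ cDC). Samd9l was at 6.37, 6.50 and 5.83 and 6.04, 6.18 and 6.07 (-0.93 ± 0.20 and -1.06 ± 0.20). These were the 2 genes of the 35 with all LysoMac arrays below all untreated CD11b+ and DN arrays, an order found in 7.98% of all genes. Oas3, which rose after R848, was not called in LysoMac, at 0.23 ± 0.15 (adjusted p = 0.318) and 0.16 ± 0.15 (adjusted p = 0.487), and its arrays overlapped those of CD11b+ cDC. Irf9 was not called (0.35 ± 0.19 and 0.18 ± 0.19), nor was Ifitm3 (-0.01 ± 0.11 and -0.24 ± 0.11), though after cyclic loess Ifitm3 was called higher in TIM-4- LysoMac (0.35, adjusted p = 0.00473).

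A few LysoMac calls rested on 1 array. Ifih1 in TIM-4- LysoMac (0.41) ended without TIM-4- replicate 2 (0.31, adjusted p = 0.079), and Phf11d (0.79) without TIM-4- replicate 3 (0.62, adjusted p = 0.0776). In TIM-4+ LysoMac, Adar (0.40) ended without TIM-4+ replicate 2 (0.30, adjusted p = 0.15) or CD11b+ replicate 4 (0.34, adjusted p = 0.0582). The lower call of Usp18 there (-0.43) ended without CD11b+ replicate 2 or 4 or any 1 TIM-4+ array (-0.38, adjusted p = 0.125, without TIM-4+ replicate 3) and after cyclic loess (-0.22). That of Helz2 (-0.39) ended without CD11b+ replicate 1, 2 or 5 or TIM-4+ replicate 3 (-0.19, adjusted p = 0.302, without the last).

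Of 6 plasmacytoid dendritic cell markers measured, 2 were higher and 3 lower in TIM-4-, and 1 was higher and 3 lower in TIM-4+ LysoMac than in CD11b+ cDC, where 11.1% of all genes were higher and 12.8% lower in TIM-4- and 11.9% and 13.5% in TIM-4+ cells. Siglech averaged 8.07 and 7.88 in LysoMac. The mean of the list was 7.17 to 7.41 on TIM-4- and 6.92 to 7.09 on TIM-4+ arrays, against 6.71 to 6.99 on CD11b+ arrays. Of 6 neutrophil markers, 3 were higher and 1 lower in TIM-4-, and 1 was higher and 1 lower in TIM-4+ LysoMac. Their mean was 4.37 to 4.66 on CD11b+, 5.19 to 6.08 on TIM-4- and 4.82 to 5.33 on TIM-4+ arrays. S100a8, a neutrophil calcium-binding protein, averaged 7.18 in TIM-4- LysoMac, 5.29 in TIM-4+ LysoMac and 4.34 in CD11b+ cDC. The part of either cell type in the LysoMac levels was not tested. Of the 32 other interferon-induced genes measured, 17 were higher and 2 lower in TIM-4-, and 20 higher and 2 lower in TIM-4+ LysoMac.

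**Figure D4:**
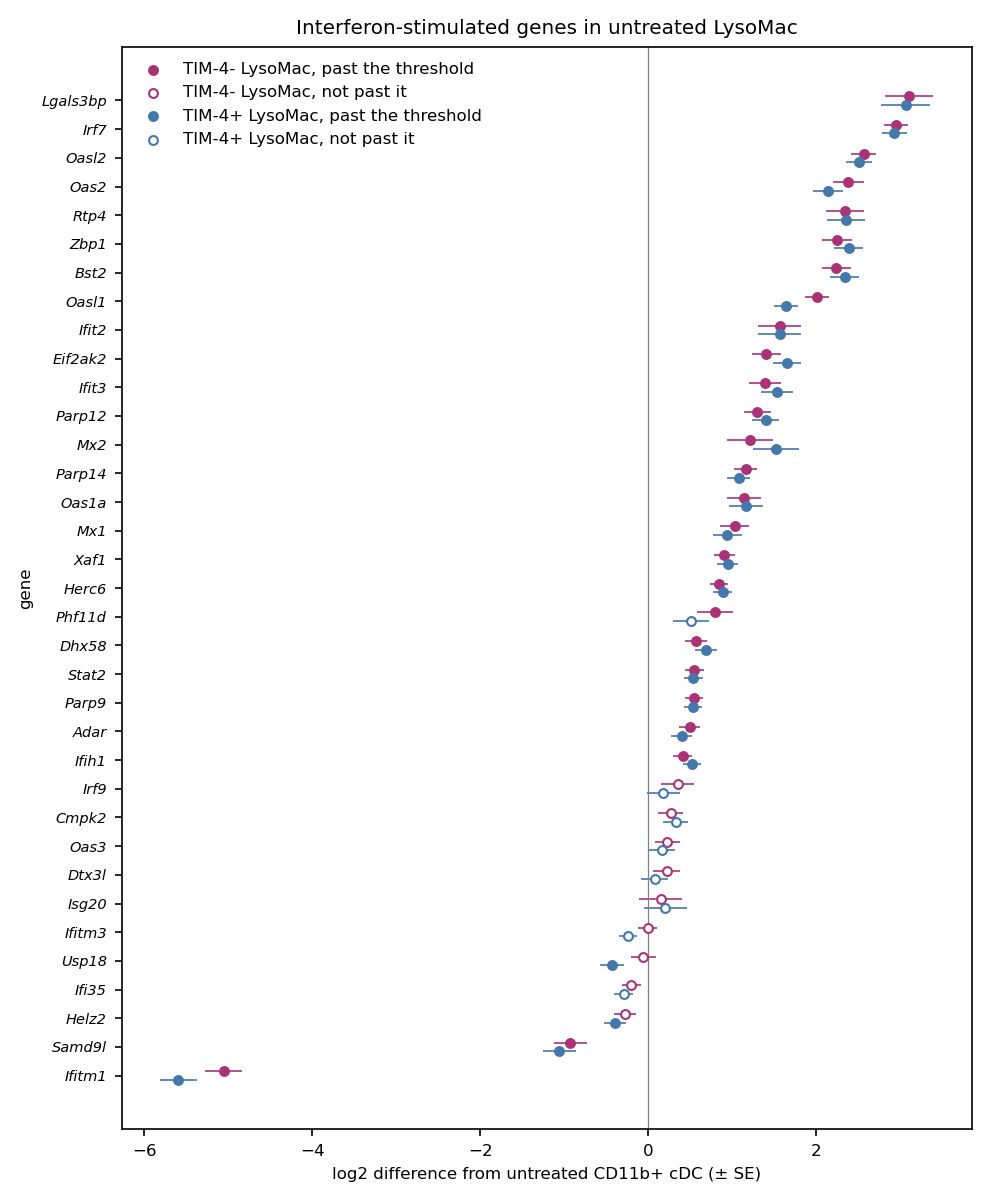
Log2 difference (x axis, ± SE) of TIM-4- and TIM-4+ LysoMac from untreated CD11b+ cDC for the 35 measured genes (y axis, ordered by the TIM-4- value); filled points are past the adjusted p threshold of 0.05. Lgals3bp (3.11 and 3.07) and Irf7 (2.95 and 2.93) lie farthest to the right, and Ifitm1 (-5.06 and -5.59) farthest to the left.

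None of these genes was called between TIM-4+ and TIM-4- LysoMac. Of 35, 0 were called by limma, where 0.467% of all genes were called in either direction, and 3 had an unadjusted p under 0.05, as had 1046 of 18419 genes (5.68%). These were Ifitm1 (-0.54 ± 0.24), Usp18 (-0.37 ± 0.16) and Oasl1 (-0.37 ± 0.16), each with the lower mean in TIM-4+ cells. Usp18 was at 8.25, 8.37 and 7.39 in TIM-4- and 7.66, 7.70 and 7.53 in TIM-4+ LysoMac, with overlap, and without TIM-4- replicate 3 it was called (-0.68, adjusted p = 0.00313). In simulated data of this comparison 90 of 100 genes changed by 2-fold were recovered. Changes below 2-fold were not simulated, so recovery at the sizes of the 3 genes above is not known.

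Between untreated CD8α+ and untreated CD11b+ cDC some of these genes were called higher and others lower. Of 33 genes, 5 were higher and 14 lower in CD8α+ cDC, where 8.6% of all genes were called higher and 38.5% lower. The lower calls thus lay near the share of all genes. Set to a common median, 8 were higher and 10 lower, where 38% of all genes were called in either direction. After cyclic loess the counts were 7 and 11, where 36.9% of all genes were called. Irf7 (1.44 ± 0.15), Samd9l (1.31 ± 0.20), Ifit2 (0.97 ± 0.26), Parp12 (0.95 ± 0.16) and Oasl1 (0.76 ± 0.14) were higher under all 3 scalings. Ifitm1 (-5.74 ± 0.22), Rtp4 (-2.56 ± 0.23), Oas1a (-1.49 ± 0.20) and Usp18 (-1.13 ± 0.15) were among the 10 that were lower under all 3. Usp18 was at 6.84, 6.92 and 7.03 in CD8α+ and 8.00, 8.17, 8.05, 8.14 and 7.96 in CD11b+ cDC, without overlap, and both subsets overlapped at 9.41 to 9.79 after R848. Without single arrays, the call of Lgals3bp (-0.73) ended for CD11b+ replicate 1, 4 or 5 and each CD8α+ array (-0.56, adjusted p = 0.11, without CD11b+ replicate 5), and that of Parp9 (-0.35) for CD8α+ replicate 2 (-0.28, adjusted p = 0.0695).

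Against CD8α+ cDC, both LysoMac groups together (6 arrays) were higher for 27 of 33 genes and lower for 1, where 40.6% of all genes were called higher and 14.5% lower. By at least 2-fold 15 were higher, against 8.55% of all genes. Set to a common median the counts were 21 and 2, where 53% of all genes were called in either direction. After cyclic loess they were 24 and 1, where 48.9% of all genes were called. Rtp4 (4.91 ± 0.22), Lgals3bp (3.81 ± 0.28), Oasl2 (3.37 ± 0.15) and Bst2 (3.02 ± 0.17) were among those higher, and Samd9l was lower (-2.30 ± 0.19). Cmpk2 (0.40), Ifit2 (0.60) and Parp12 (0.40) lost their call under both other scalings and without CD8α+ replicate 1 (0.32, 0.43 and 0.42). Other single arrays ended it too: TIM-4- replicate 3 for Cmpk2, CD8α+ replicate 3, TIM-4- replicate 1 or 2 and TIM-4+ replicate 2 for Ifit2, and CD8α+ replicate 2 or 3, TIM-4- replicate 2 and TIM-4+ replicate 1 or 3 for Parp12. Ifitm1 was not called here (0.42 ± 0.21, adjusted p = 0.0964), and was called without CD8α+ replicate 3 (0.74, adjusted p = 0.00541).

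Few of these genes were called between DN and CD11b+ cDC. Of 35, 1 was higher and 4 lower in DN cDC, where 2.52% of all genes were called higher and 1.74% lower. Set to a common median the counts were 0 and 4, where 5.59% of all genes were called in either direction. After cyclic loess they were 2 and 4, where 4.21% of all genes were called. Oas1a was at 6.10, 5.75 and 6.02 in DN and 7.11, 7.10, 6.39, 7.02 and 7.05 in CD11b+ cDC (-0.98 ± 0.20, adjusted p = 0.00491), without overlap, and Ifitm3 was at 11.16, 10.89 and 11.51 and 11.75, 11.74, 11.91, 12.08 and 12.13 (-0.73 ± 0.11). The calls of Oas1a and Ifitm3 held under every setting tried. Ifih1 (-0.52 ± 0.11) was not called from these arrays alone (adjusted p = 0.0913). Lgals3bp (-1.06 ± 0.29) and Ifit3 (0.68 ± 0.19) lost their calls without any 1 DN array (-0.87 and 0.53 without DN replicate 2); that of Lgals3bp also ended without CD11b+ replicate 4 or 5, and that of Ifit3 without CD11b+ replicate 1, 2 or 3. Of 7 stroma and endothelium markers, 6 were higher in DN cDC. The mean of the 7 was 6.32 to 6.55 on DN and 4.45 to 5.18 on CD11b+ arrays. That of 7 epithelial markers was 6.73 to 7.88 and 5.02 to 7.41, with overlap. Among these, Fabp2 averaged 10.34 in DN and 6.35 in CD11b+ cDC, and Epcam 7.41 and 7.94. For 5 plasma cell markers the ranges were 6.74 to 7.15 and 6.04 to 7.18, and Jchain averaged 10.07 and 7.59. The part of these lists in the differences above was not tested.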

How the data were processed

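The authors deposited log2 signals computed with RMA in Affymetrix Expression Console 1.4.1, per the submitters' processing notes. The sources used here do not give the annotation's genome build or say whether all arrays were normalized together. Gene names came from the platform annotation, using rows with 1 symbol. Row names fitted the 8 R848 arrays only; the 28939 rows of the other sets were matched to these in order with a pair hidden Markov model and accepted at a probability of 0.9 or more where no alternative route favoured another partner (88.6% and 90.5% of rows). After matching, 2 clusters of one gene correlated at 0.841 and 0.832, against 0.164 and 0.0849 as deposited. In simulations 0.718% to 0.817% of accepted rows were wrong, and 0.271% to 1.53% of accepted changed rows in runs of 3. The simulated differences were drawn from rows that the same matching had accepted, so all simulated error rates given here may be too low.

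Limma 3.58.1 (R 4.3.3) fitted 7 group means to all 25 arrays, with Benjamini-Hochberg adjustment over all genes; ± is the SE unless SD is named. Tested on simulated data, it recovered 89 to 94 of 100 genes changed 2-fold. The study's design text calls the replicates independent, and each is a pool of mice, so p-values measure the spread between pools. The members, their roles, the marker and pathway lists and the tests were chosen with earlier results of these data known. Any member could be named. Alternatives were a common median, cyclic loess, stricter row matching, the mean of a gene's clusters, genes with a group mean above 5, a trended and robust variance, only the arrays compared, the replicate number as a block, and each array left out; matching rows on group pairs not tested was chosen after seeing the data.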

Additional observations from a re-analysis of the deposited data

Results flagged for a closer look

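By the interaction test, which crosses all 3 array sets, the R848 response differed between CD8α+ and CD11b+ cDC for 17 of 33 genes. Beside Ifitm1 (2.38), Rtp4 (1.49), Oas1a (1.27), Oas3 (1.26), Usp18 (1.25), Oasl1 (1.12), Herc6 (0.99), Ifih1 (0.91), Oasl2 (0.89) and Samd9l (-0.86), these were Bst2 (0.86), Ifi35 (0.65), Parp9 (0.64), Ifitm3 (0.64), Adar (0.64), Stat2 (0.58) and Parp14 (0.56), in log2 units, CD8α+ minus CD11b+. The last 7 were not called under each of the 3 scalings.

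Single arrays stood apart from the others of their group in 4 of 72 tests of a group of 5, a test that chance passes in about 1 of 20 groups. In untreated CD11b+ cDC, Oas1a was at 6.39 on replicate 3 against 7.02 to 7.11 on the others. On replicate 4 of that group Oasl1 was at 5.38 against 5.90 to 6.04, and Adar at 6.49 against 6.75 to 6.85. In CD8α+ cDC after R848, Oasl1 was at 10.10 on replicate 2 against 9.75 to 9.85.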

How the results depend on the processing

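Of 201 calls over the 10 comparisons, 162 held under every alternative that could be computed and without any 1 array; 23 ended without some array and 34 under some other setting. A common median ended 21, cyclic loess 13, a fit of only the arrays compared 15, the trended and robust variance 2, and the dim filter, the mean of clusters and the other row pairs 0. Stricter row matching left 117 calls measurable and ended 1; fewer genes being tested, it made 18 calls of R848 in CD11b+ cDC, 7 of the difference of responses, 7 of untreated CD8α+ against CD11b+ cDC, 15 of each LysoMac group against CD11b+ cDC and 14 against CD8α+ cDC. The difference of responses had 10 calls with a common median, and DN against CD11b+ cDC had 2 with only the arrays compared. With the replicate number as a block, CD8α+ against CD11b+ cDC after R848 had 10 calls in place of 17; 17 of all 201 calls ended, and no other count moved by over 1.5 times. The numbers were not used as pairs: same-numbered arrays had correlations of -0.23 to 0.17, and 8 of 25 arrays correlated best with their own number.

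Without 1 array, the counts of calls were 31 to 32 (R848, CD11b+), 30 to 30 (R848, CD8α+), 15 to 18 (difference of responses), 12 to 17 (after R848), 18 to 19 (untreated CD8α+ against CD11b+), 3 to 5 (DN), 25 to 26 (TIM-4- LysoMac), 25 to 27 (TIM-4+ LysoMac), 0 to 1 (TIM-4+ against TIM-4-) and 25 to 28 (LysoMac against CD8α+).

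The sign turned for some differences that were not called. Samd9l in CD8α+ cDC after R848 was at -0.020 with a common median, and -0.075 to 0.35 without 1 array. Lgals3bp there was at 0.25 with the block. Irf9 in CD11b+ cDC after R848 was at -0.083 to 0.30 without 1 array, and Rsad2 in CD8α+ against CD11b+ cDC after R848 at -0.25 to 0.037. Usp18 in TIM-4- LysoMac was at 0.13 after cyclic loess and -0.24 to 0.25 without 1 array. After cyclic loess Ifitm3 was at 0.35 for TIM-4- cells, where it was then called, and 0.15 for TIM-4+ cells; in the former it was at 0.031 with the block and -0.053 to 0.045 without 1 array. The causes were not tested, and the number of arrays limits the precision.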
